A study of Mus musculus with 9 samples.

Results

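The genes described here encode the proteasome. They were chosen by symbol, as all rows of the count table whose names start with Psm, a letter from a to g and a digit. Psmb8 and Psmb9 were left out, since both belong to the interferon-inducible genes and are given only for comparison. Of 49 matching symbols, 48 had at least 10 counts in at least 3 of the 9 libraries and were kept, out of 20731 genes in the table. Psmb11, a subunit of the thymus, had 0 to 8 counts and was not kept. All 48 genes were among the 14746 genes that passed the filter of the fit on low counts.

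Brain RNA of 9 mice, 3 per group, was sequenced on day 2. All were male C57BL/6J mice aged 8 to 10 weeks according to the methods, and all had a thrombosis of the superior sagittal sinus that was induced with ferric chloride (cerebral venous sinus thrombosis, CVST). The CVST group had the thrombosis only. In the CVST+Ligation group the deep cervical lymph nodes, which drain the meningeal lymphatic vessels, were ligated as well. The 4-PBA group had the thrombosis, the ligation and 4-phenylbutyric acid, a chemical chaperone given against stress of the endoplasmic reticulum (ER). The methods place the drug before modelling, and the description of the data set places it after ligation. No library of mice without thrombosis was analysed here, so every comparison is between thrombosed brains. The sample labels give the tissue as brain, and the description of the data set gives it as cortex.

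The proteasome degrades proteins that carry ubiquitin chains. Its 20S core is a barrel of α rings, which gate the entrance, and β rings, which hold the proteolytic sites. The 19S regulatory particle caps the core, binds and removes ubiquitin, and unfolds the substrate with a ring of ATPases. Other activators can dock in place of the 19S particle, and dedicated chaperones build the core and the cap. Neurons depend on the proteasome for the turnover of synaptic proteins, and misfolded proteins drawn out of the ER end there. By role, the 48 members comprised 8 genes of the α ring, 3 catalytic and 4 other genes of the β ring, the inducible Psmb10, 6 ATPases and 11 other subunits of the 19S particle, 3 chaperones of the 19S particle, 4 chaperones of the core, 5 activator genes and the inhibitor Psmf1. Psmc3ip, a recombination factor, and Psme3ip1, a partner of the activator Psme3, matched by name only and are no subunits.

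The libraries held 18100739 to 25091498 counts, and a floor of 3 counts corresponded to 0.114 to 0.163 CPM. CPM are counts per library size after TMM scaling (a correction for the composition of each library), and the floor is on the same scale. Proteasome genes took 0.629 to 0.786% of the counts of a library. Cortical markers were present in every library, but summed markers of regions differed between the groups. Those of midbrain dopamine neurons lay at 17.9 to 19.5 CPM in CVST, 166 to 203 in CVST+Ligation and 224 to 227 in 4-PBA. Markers of cortical neurons lay at 1929.7 to 2414, 555 to 1774 and 665 to 975 CPM, those of oligodendrocytes at 2257 to 2948, 2299.8 to 5168 and 3879 to 6401 CPM, those of the hypothalamus at 0.722 to 1.63, 1.12 to 18.2 and 272 to 461 CPM, and those of the thalamus at 47.9 to 56.6, 135 to 290.1 and 288 to 555 CPM. In the same order, markers of the striatum lay at 367 to 900.5, 102 to 175 and 97.2 to 446 CPM and those of the choroid plexus at 782 to 976, 9.59 to 854 and 438 to 3083 CPM. All 5 markers of the hypothalamus were higher in 4-PBA versus CVST+Ligation at an unadjusted p below 0.05. Markers of the cerebellum reached 684 CPM in CVST+Ligation replicate 2. The part of these regional differences in the proteasome values was not tested. In whole tissue, fewer cells of a kind and less RNA per cell cannot be told apart.

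One library stood apart, and not for the proteasome alone. The median deviation from the mean of the 9 libraries (log2 CPM) in CVST replicate 3 was 0.29 for proteasome genes, 0.37 for genes of cytosolic ribosomal proteins and 0.36 for nuclear genes of oxidative phosphorylation. In CVST replicate 3, 35 of the 48 genes had their highest CPM of the 9 libraries, including all 14 standard genes of the 20S core (Psma1 to Psma7 and Psmb1 to Psmb7) and 11 of 17 genes of the 19S particle. With scaling by total counts alone, as in the deposited FPKM, these counts were 27 of 48, 13 of 14 (all but Psma6) and 8 of 17. This library also carried the steepest fall of expression with gene length, a slope of -0.40 log2 units per 10-fold length, against -0.12 to 0.29 in the other libraries. Counts of proteasome genes below 0 and their medians in the comparisons with the CVST group are therefore given with and without it, as are single values that it moved by more than 1.5 times among those led with.

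Promoters are shown for 2 catalytic genes of the core and 1 chaperone of the 19S particle, because transcription factors of the Nfe2l family are known to drive proteasome genes through antioxidant response elements. The core of this element was searched on both strands as TGACNNNGC, where N is any base, in RefSeq promoters from 250 bases before to 50 bases after each start (build GRCm38.p6). A promoter was at hand for 40 of the 48 genes. Of these, 6 held the motif (15.0%), namely Psmb5, Psmb6, Psmc6, Psmd9, Psmd12 and Psme4, against 14.0% of all 27025 genes with a promoter and 16.7% of those tested. The CCAAT box, bound by NF-Y and also searched on both strands, was present in 14 of the 40 (35.0%), against 41.1% of all promoters. The 60 bases before the start are printed for the genes whose match lay wholly within them, on the strand of the gene, with the match in capitals. They are Psmb5 (chr14:54617996-54618055, minus strand), Psmb6 (chr11:70525297-70525356, plus strand) and Psmd9 (chr5:123228130-123228189, plus strand).
Psmb5: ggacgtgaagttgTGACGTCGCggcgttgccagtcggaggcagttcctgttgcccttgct
Psmb6: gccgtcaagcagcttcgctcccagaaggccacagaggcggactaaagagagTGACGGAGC
Psmd9: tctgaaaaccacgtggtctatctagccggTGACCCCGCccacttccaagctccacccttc
Neither share of proteasome promoters was above that of the tested genes (42.4% for CCAAT). A match in these letters is a description of the sequence only.

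Levels per gene length were compared on FPKM, the deposited expression value that divides the count by the library total and by the length of the gene. The standard subunits of the 20S core and the 19S particle lay at similar levels. Their mean over the 9 libraries ran from 71.0 ± 6.16 FPKM for Psmd11, a subunit of the lid, to 330.3 ± 43.1 FPKM for Psmb4 of the β ring (SD, n = 9), a 4.65-fold range over 31 genes. Psmb1 (323 ± 32.4), Psmc1 (322 ± 28.4), Psmc5 (291 ± 34.6), Psma2 (289 ± 36.6) and Psmb7 (282 ± 43.8) followed Psmb4 in FPKM. Of the 47 pairs of neighbours in the order of all 48 genes, 34 differed by less than the larger SD of the pair, so most of this order lay within the spread between libraries.

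Genes that assemble or modify the complex mostly lay below the subunits. Psme3, the nuclear activator, had 133 ± 12.5 FPKM, Psme1 had 92.1 ± 13.4 and Psme2 had 53.4 ± 6.46, the pair that forms the interferon-inducible activator of the core. The inducible β subunit Psmb10 had 47.0 ± 8.16 FPKM and the inhibitor Psmf1 had 40.4 ± 4.04. Chaperones of the core ranged from 9.49 ± 1.44 FPKM (Psmg3) to 41.3 ± 3.90 (Psmg2), and those of the 19S particle from 40.2 ± 2.46 (Psmd9) to 61.1 ± 4.86 (Psmd5). Psme4, a large activator that docks to the core alone, had 7.53 ± 0.932 FPKM. Psma8, a subunit of the male germ line that is a close copy of Psma7, had 0.489 ± 0.328 FPKM on 1 to 19 counts per library, which leaves it near the floor.

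**Figure D1:**
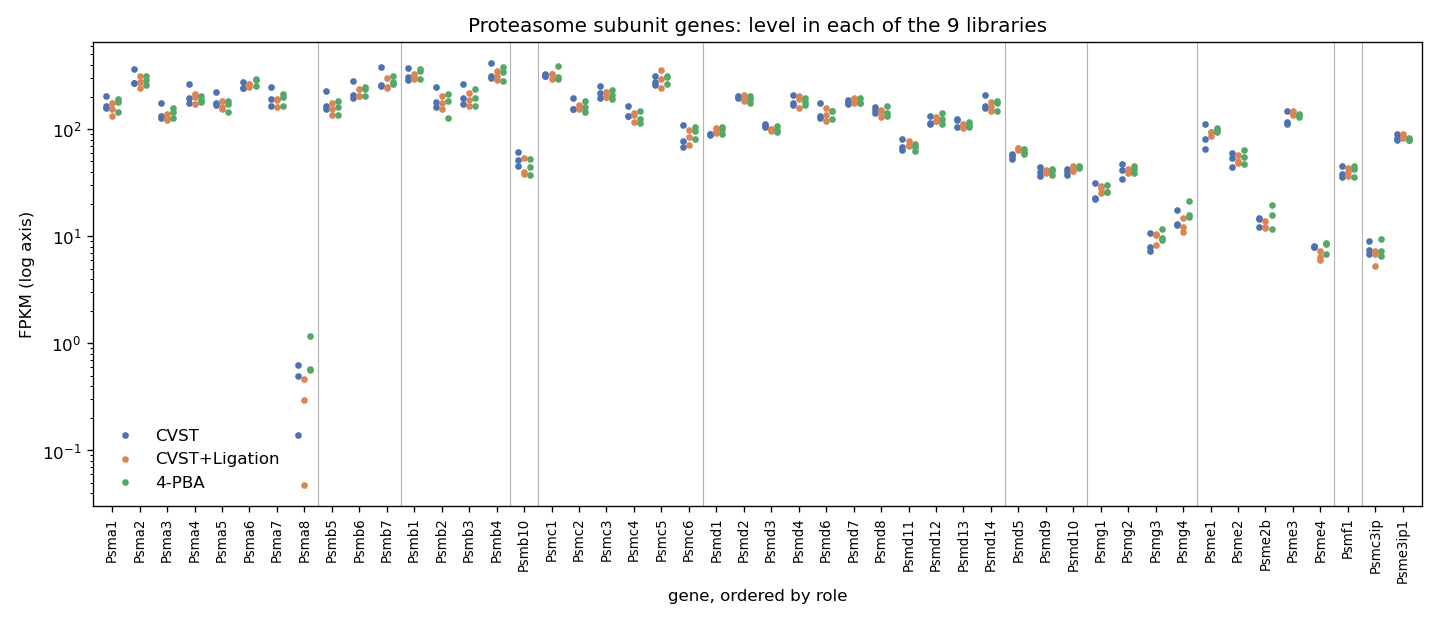
Expression of the 48 proteasome genes in FPKM (log axis), with 1 point for each of the 9 libraries, coloured by group and ordered by role. The 31 standard subunits of the core and of the 19S particle lie between 71.0 and 330.3 FPKM on average, chaperones and activators mostly lower, and Psma8 lies near the floor.

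The catalytic subunits showed the pattern of the core. Psmb5, which carries the chymotrypsin-like site, had CPM values of 125, 131 and 187 in CVST, 121, 105 and 142 in CVST+Ligation, and 105, 127 and 138 in 4-PBA. Psmb6, which carries the caspase-like site, had CPM values of 144, 150.1 and 211 in CVST, 145, 142 and 174 in CVST+Ligation, and 142, 168 and 169.7 in 4-PBA. Psmb7, which carries the trypsin-like site, had CPM values of 219.8, 211 and 334 in CVST, 202, 201 and 255 in CVST+Ligation, and 216, 228 and 249 in 4-PBA. For all 3 genes CVST replicate 3 was the highest library and the remaining 8 overlapped between the groups. The log2 fold changes of CVST+Ligation versus CVST were -0.27 for Psmb5 (95% interval -0.70 to 0.16), -0.13 for Psmb6 (-0.51 to 0.25) and -0.22 for Psmb7 (-0.64 to 0.20), each interval including 0. Without CVST replicate 3 they were -0.079, 0.041 and 0.0038. Those of 4-PBA versus CVST+Ligation were 0.01, 0.06 and 0.07. Psmb10 takes the place of Psmb7 in the immunoproteasome. It had CPM values of 37.8, 42.1 and 52.7 in CVST, 32.8, 30.3 and 45.5 in CVST+Ligation, and 29.9, 35.8 and 40.9 in 4-PBA, with overlapping groups and log2 fold changes of -0.29 for CVST+Ligation versus CVST (-0.75 to 0.17) and -0.31 for 4-PBA versus CVST (-0.77 to 0.15). They were -0.16 and -0.18 without CVST replicate 3. Read counts cannot tell a shift in the make-up of assembled particles from a shift in RNA.

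In the α ring, which opens and closes the core, the 7 standard genes Psma1 to Psma7 all had their highest CPM in CVST replicate 3. For Psma6 this depended on the scaling, since in FPKM it was highest in 4-PBA replicate 3 (292, against 275 in CVST replicate 3). Psma5 had CPM values of 134, 125 and 174 in CVST, 121, 112 and 141 in CVST+Ligation, and 106, 127 and 130.4 in 4-PBA, and its groups overlapped. It differed by -0.25 (log2) between 4-PBA and CVST (-0.61 to 0.11), an interval that includes 0, and by -0.11 without CVST replicate 3. Psma6 was the steadiest of the core genes, at CPM values of 189, 185 and 219 in CVST, 186, 194 and 205 in CVST+Ligation, and 186, 217 and 212 in 4-PBA, with its highest library 1.19 times its lowest. Psma8 had counts of 3, 10 and 11 in CVST, 10, 5 and 1 in CVST+Ligation, and 19, 12 and 13 in 4-PBA, and its log2 fold change of 1.46 for 4-PBA versus CVST+Ligation had an interval from -0.33 to 3.25. Its reads could in part come from Psma7.

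In the 19S particle, Psmd14, the enzyme that cuts ubiquitin chains off the substrate, had CPM values of 151, 155 and 206 in CVST, 149, 134 and 171 in CVST+Ligation, and 134, 161 and 164 in 4-PBA. Psmd4, a receptor for ubiquitin, had CPM values of 231, 213 and 277 in CVST, 198, 251 and 249 in CVST+Ligation, and 212, 227 and 237 in 4-PBA. Psmd2, the scaffold to which shuttle factors dock, had CPM values of 581, 552 and 573 in CVST, 511, 557 and 546 in CVST+Ligation, and 479.8, 523 and 540.3 in 4-PBA. The groups overlapped for Psmd14 and Psmd4, whereas Psmd2 was lower in every 4-PBA library than in every CVST library, with a log2 fold change of -0.14 (-0.38 to 0.09). Psmd3, a lid subunit, had CPM values of 178, 177 and 195 in CVST, 158, 162 and 170.2 in CVST+Ligation, and 155, 164 and 169 in 4-PBA and was lower in every library of either ligated group than in every CVST library. With scaling by total counts Psmd2 and Psmd3 overlapped between 4-PBA and CVST, and Psmd3 still separated CVST+Ligation from CVST. Its log2 fold changes against CVST were -0.17 ± 0.10 (SE) for CVST+Ligation and -0.18 ± 0.10 for 4-PBA, with adjusted p = 0.633 and 0.453 (edgeR's quasi-likelihood test, Benjamini-Hochberg). These comparisons share the CVST libraries, so the 2 values are no independent support of each other.

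Of the remaining 19S genes, the ATPase Psmc4 had CPM values of 172, 168 and 218 in CVST, 147, 171 and 175 in CVST+Ligation, and 142, 157 and 178 in 4-PBA, and -0.23 was its log2 fold change for 4-PBA versus CVST (-0.56 to 0.10), or -0.11 without CVST replicate 3. The scaffold Psmd1 had CPM values of 265, 257 and 264 in CVST, 274, 254 and 304 in CVST+Ligation, and 254, 286 and 285 in 4-PBA, with a fold change of 0.08 (log2) for CVST+Ligation versus CVST. The lid subunit Psmd11 had CPM values of 114, 93.7 and 92.4 in CVST, 97.9, 92.9 and 109.8 in CVST+Ligation, and 91.4, 84.4 and 95.9 in 4-PBA, with a log2 fold change of -0.15 for 4-PBA versus CVST+Ligation. None of these groups separated in CPM, whereas by total counts Psmd1 was higher in every library of either ligated group than in every CVST library. Psmd7, the partner of Psmd14 in the lid, varied least of all 48 genes in CPM, with its highest library 1.10 times its lowest. By total counts this ratio was 1.15, and that of Psme3ip1 was lower (1.14).

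Among the chaperones of the 19S particle, Psmd5, which holds ATPases of the base before assembly, had CPM values of 91.8, 79.4 and 89.7 in CVST, 95.6, 97.8 and 104 in CVST+Ligation, and 96.3, 92.4 and 85.2 in 4-PBA and was higher in every CVST+Ligation library than in every CVST library. Its log2 fold change was 0.19 ± 0.11 (SE), adjusted p = 0.618 by the quasi-likelihood test of edgeR after Benjamini-Hochberg adjustment, and -0.12 for 4-PBA versus CVST+Ligation. Psmd10, known as gankyrin, had CPM values of 26.4, 27.6 and 30.9 in CVST, 28.1, 30.6 and 29.9 in CVST+Ligation, and 30.6, 30.6 and 28.5 in 4-PBA, with groups that overlapped in CPM but not, for 4-PBA versus CVST, by total counts. Among the chaperones of the core, Psmg4 had CPM values of 4.97, 4.74 and 6.89 in CVST, 4.46, 3.97 and 5.67 in CVST+Ligation, and 5.69, 5.60 and 7.54 in 4-PBA, and its log2 fold change for 4-PBA versus CVST+Ligation was 0.42 (-0.16 to 1.0), with groups that overlapped in CPM but not by total counts.

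Among the activators, Psme4 was the only member with an unadjusted p under the threshold of 0.05 in any comparison. The gene lies on the plus strand of chromosome 11 (30771726 to 30880361, GRCm38) and overlaps Gm12103 on the other strand, and the use of strand in the counting is not stated. Psme4 had CPM values of 46.9, 47.0 and 48.9 in CVST, 42.6, 36.3 and 36.0 in CVST+Ligation, and 38.5, 49.4 and 47.9 in 4-PBA, so that all 3 CVST+Ligation libraries lay below the CVST libraries, while the 4-PBA libraries spanned both ranges. The log2 fold change of CVST+Ligation versus CVST was -0.31 ± 0.14 (SE), with adjusted p = 0.516 by the quasi-likelihood test of edgeR after Benjamini-Hochberg adjustment. Before adjustment the p of this model was 0.0497. For 4-PBA versus CVST+Ligation the value was 0.24 (-0.07 to 0.56), adjusted p = 1 by the same test. Under 20 other settings, single libraries left out included, the log2 fold change stayed between -0.47 and -0.24, and the call at the unadjusted threshold was lost in 14 of them.

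Psme3 had CPM values of 127, 97.6 and 97.7 in CVST, 123, 113 and 116 in CVST+Ligation, and 114, 108 and 107 in 4-PBA and was not raised in CVST replicate 3. Psme1 had CPM values of 50.7, 60.8 and 89.2 in CVST, 70.5, 62.8 and 73.3 in CVST+Ligation, and 75.5, 73.2 and 67.4 in 4-PBA, and Psme2 had CPM values of 33.6, 39.9 and 46.7 in CVST, 35.9, 40.9 and 38.0 in CVST+Ligation, and 34.6, 40.6 and 45.6 in 4-PBA. The spread of Psme1 within the CVST group, from 50.7 to 89.2 CPM, covered all values of the other groups. Psme2b, a near copy of Psme2, had CPM values of 9.05, 10.5 and 11.3 in CVST, 9.88, 8.45 and 8.88 in CVST+Ligation, and 11.1, 8.42 and 13.5 in 4-PBA. How the counting split reads between the copies is not stated, and the values of Psme2 and Psme2b are uncertain to that extent. The inhibitor Psmf1 had CPM values of 30.1, 31.2 and 39.1 in CVST, 29.8, 34.3 and 33.0 in CVST+Ligation, and 28.4, 34.4 and 35.5 in 4-PBA, with log2 fold changes of -0.05, 0.02 and -0.03 in the 3 comparisons. The values against CVST were 0.056 for CVST+Ligation and 0.078 for 4-PBA when CVST replicate 3 was left out. Psme3ip1, which is no subunit, had CPM values of 65.3, 61.5 and 72.5 in CVST, 63.6, 65.1 and 71.6 in CVST+Ligation, and 59.7, 62.7 and 58.2 in 4-PBA, and every 4-PBA library lay below every CVST+Ligation library (log2 fold change -0.15, -0.41 to 0.11).

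**Figure D2:**
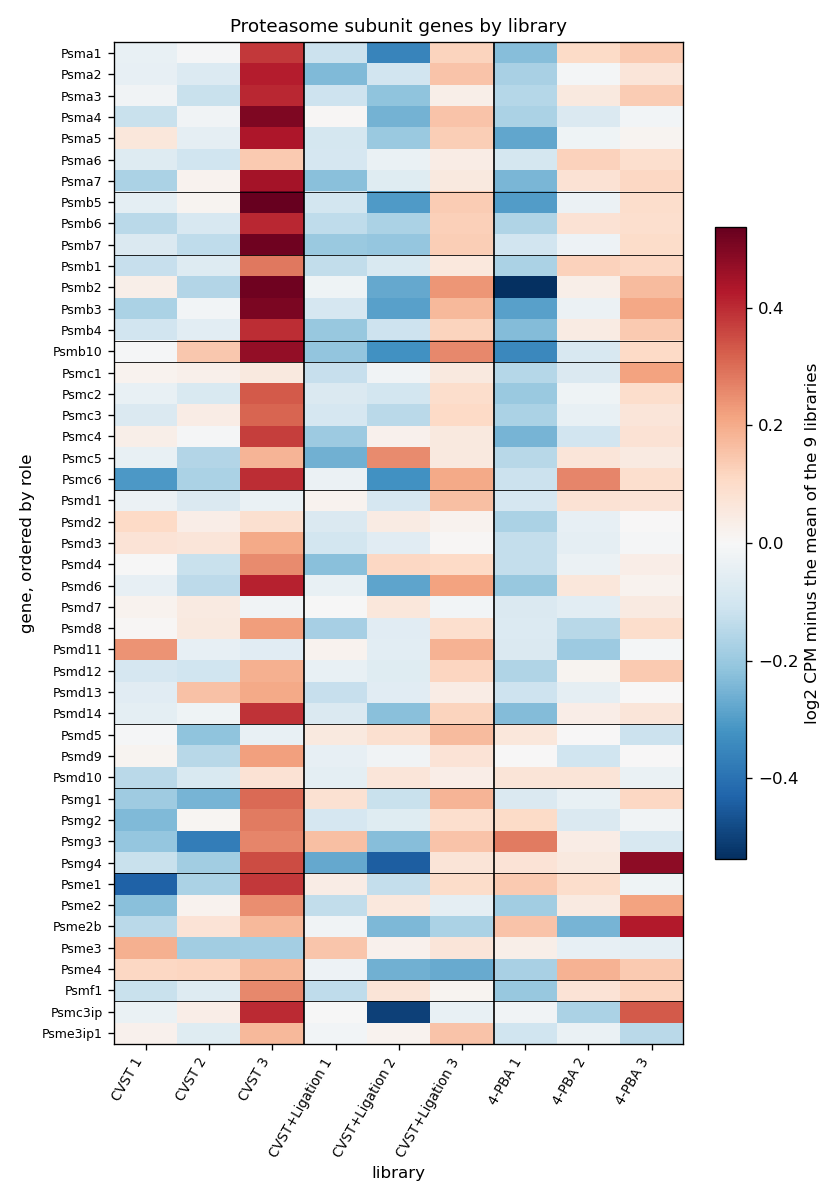
Deviation of log2 CPM from the mean of the 9 libraries for 47 proteasome genes (rows, ordered by role, without Psma8, which lay near the floor) in each library (columns). Red is above and blue below the mean, and CVST replicate 3 is the highest library for all 14 standard genes of the 20S core in this scaling (for 13 by total counts).

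The first comparison, CVST+Ligation versus CVST, sets mice with thrombosis and ligation against mice with thrombosis alone. Of the 48 genes, 0 were higher and 1 (Psme4) was lower at an unadjusted p below 0.05, where 9.64% of the 14746 genes were called, and 0 were called after adjustment, where 3 genes in all were called (0.0203%). DESeq2 also called 0 members after adjustment, where it called 264 of all genes (1.8%), and 1, Psme4, before it, where it called 11.4%. The log2 fold change was below 0 for 37 genes and above 0 for 11, against 49.7% of all genes below 0, and the median was -0.13 against 0.0021 for all genes. All 14 standard core genes were below 0 (median -0.18), as were 13 of 17 genes of the 19S particle (median -0.08). Groups did not overlap for 3 members (6.25%), Psme4, Psmd3 and Psmd5, against 13.8% of all genes. By total counts there were 4, with Psmd1 added, against 14.1% of all genes.

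This lean to values below 0 was not present without CVST replicate 3. Then 23 of the 48 genes were below 0 with a median of 0.0093, and 7 of the 14 core genes with a median of 0.0018 and single values from -0.10 to 0.041. Of the 17 genes of the 19S particle, 10 were below 0, with a median of -0.04. Other abundant housekeeping genes leaned the same way in the full set. Of 86 genes of cytosolic ribosomal proteins 82 were below 0 (median -0.17), and of 79 nuclear genes of oxidative phosphorylation 63 (median -0.061). Without CVST replicate 3 these were 54 of 86 (median -0.03) and 14 of 80 (median 0.11), so the direction turned for oxidative phosphorylation. With a correction for the trend of expression with gene length, the proteasome median was -0.10 and that of the core -0.11. Under this correction 71 of the 86 ribosomal protein genes were below 0 (median -0.082) and 25 of the 79 genes of oxidative phosphorylation (median 0.035). The 95% interval of the log2 fold change lay within ±0.5 (a change of 1.41-fold) for 25 members and within ±1 (2-fold) for 47, the exception being Psma8.

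The second comparison, 4-PBA versus CVST+Ligation, sets ligated mice given the drug against ligated mice without it. At an unadjusted p below 0.05 the count was 0 of 48 genes by edgeR's quasi-likelihood test and 0 by DESeq2, where they called 3.23% and 3.88% of all genes. After adjustment 0 members were called, as were 0 of all genes by edgeR (0%) and 22 by DESeq2 (0.15%). The smallest unadjusted p of a member was 0.0939, that of Psma8 near the floor, by edgeR's quasi-likelihood test (adjusted p = 1). Values were below 0 for 22 genes and above 0 for 26, against 53.0% of all genes below 0, with a median of 0.012 (all genes -0.017). Core genes were above 0 in 11 of 14 and 19S genes in 4 of 17, with medians of 0.056 and -0.013. With scaling by total counts, 34 of the 48 genes and 11 of the 17 19S genes were above 0, and the median of the 48 was 0.047. In this scaling 7826 of all 14746 genes were above 0, with a median of 0.014. The direction also turned with the library left out. The count below 0 was 9 without CVST+Ligation replicate 3 (median 0.077) or without 4-PBA replicate 1 (median 0.084), 27 without CVST+Ligation replicate 1 (median -0.0067) and 31 without 4-PBA replicate 3 (median -0.042). Psma8 and Psme3ip1 were the 2 members without overlap (4.17%), against 7.73% of all genes, and by total counts there were 3, with Psmg4 added, against 7.15%. The intervals of 38 members lay within ±0.5 and those of 47 within ±1.

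The last comparison, 4-PBA versus CVST, sets ligated and treated mice against thrombosis alone. It called 0 members at an unadjusted p below 0.05 with edgeR's quasi-likelihood test and 0 with DESeq2, where they called 15.4% and 17.7% of all genes. After adjustment both called 0 members, with 18 of all genes (0.122%) called by edgeR and 855 (5.82%) by DESeq2. Of the 48 genes, 35 were below 0 (51.1% of all genes) with a median of -0.087, and without CVST replicate 3 these values were 18 genes and 0.042. Scaling by total counts left 26 of the 48 genes below 0 (median -0.0099), against 6162 of all 14746 genes (median 0.063). Psmd2 and Psmd3 did not overlap between the groups in CPM (4.17% of members, against 23.7% of all genes). By total counts Psmd1 and Psmd10 were the 2 that did not, against 23.6% of all genes. The intervals of 28 members lay within ±0.5 and those of 47 within ±1. The first and the last comparison share the CVST libraries, and the first and the second share the CVST+Ligation libraries.

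**Figure D3:**
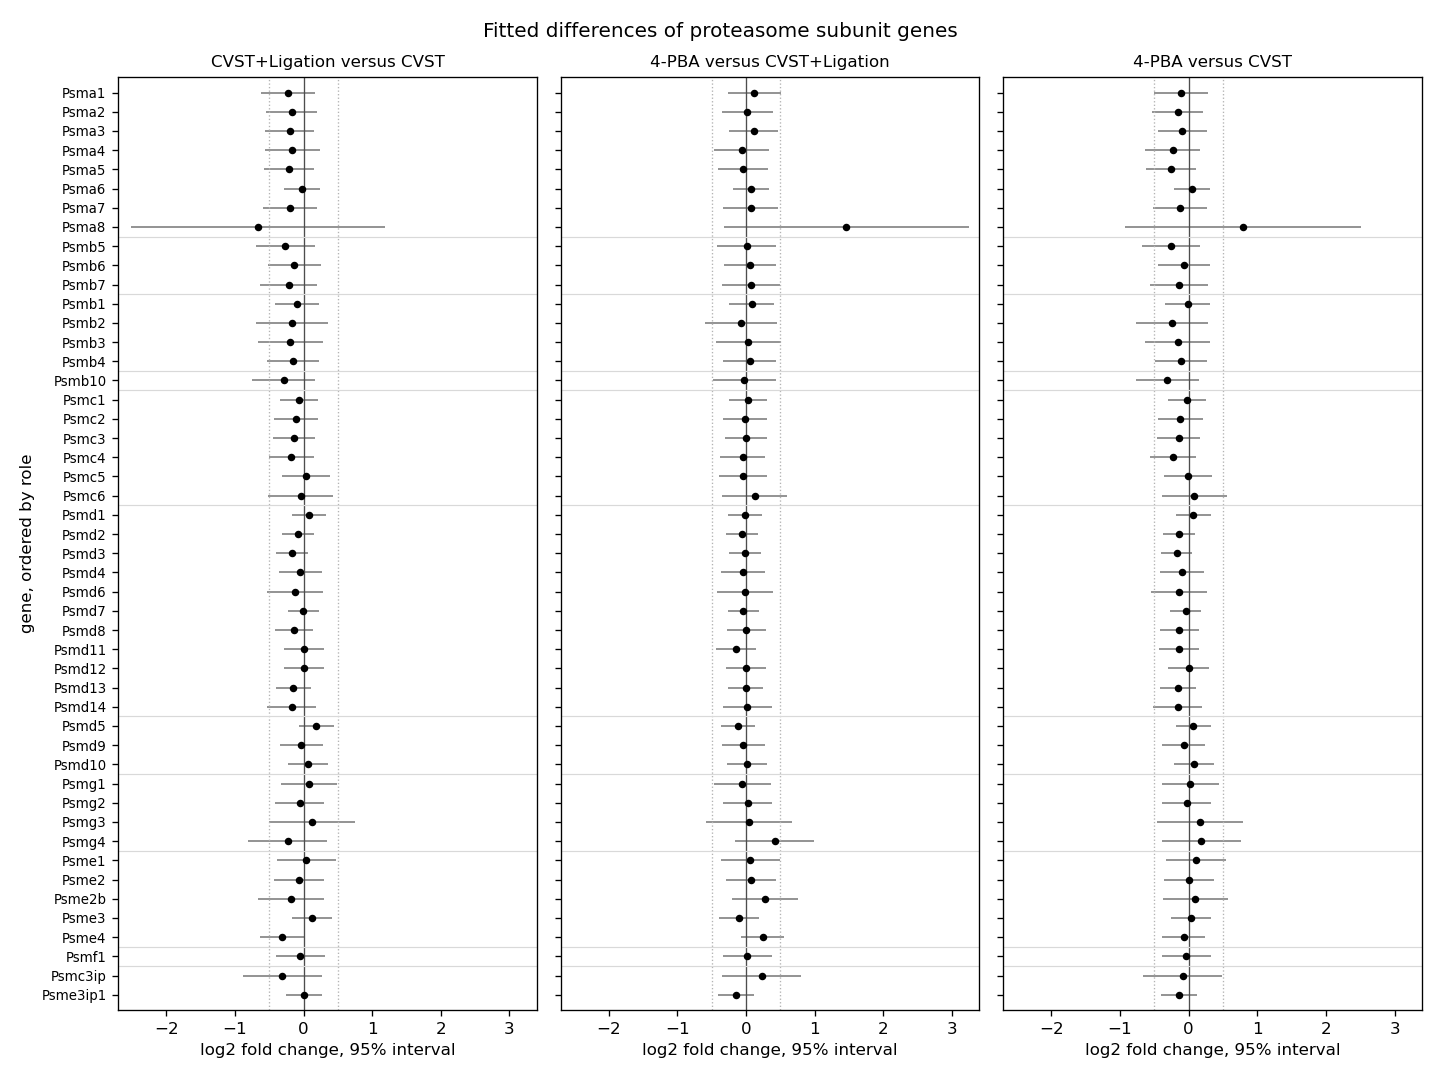
Log2 fold change (points) and 95% interval (bars) of the 48 proteasome genes in the 3 comparisons, ordered by role, from the fit across all genes. Dotted lines mark ±0.5, and the interval of Psma8 is the widest in each panel.

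Within a library, the balance of the parts of the complex can be read without scaling between libraries. The mean FPKM per gene of the 20S core divided by that of the 19S particle was 1.32, 1.35 and 1.60 in CVST, 1.36, 1.25 and 1.42 in CVST+Ligation, and 1.33, 1.44 and 1.42 in 4-PBA. The ratio of CVST replicate 3 was the highest, and the groups overlapped. Gene lengths differ between the parts, with a median of 762.5 bases for core genes and 1318 for 19S genes, and the part of the length trend of that library in the ratio was not tested. In percent of Psmb7 (FPKM), Psmb10 was at 17.5, 20.2 and 16 in CVST, 16.5, 15.3 and 18.1 in CVST+Ligation, and 14.0, 16 and 16.7 in 4-PBA, with overlapping groups. The sum of Psme1 and Psme2 divided by Psme3 was 0.745, 1.16 and 1.56 in CVST, 0.967, 1.03 and 1.07 in CVST+Ligation, and 1.09, 1.18 and 1.18 in 4-PBA, and its spread in the CVST group exceeded that of the ligated groups. Every 4-PBA library lay above every CVST+Ligation library in this ratio, and both groups overlapped CVST.

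**Figure D4:**
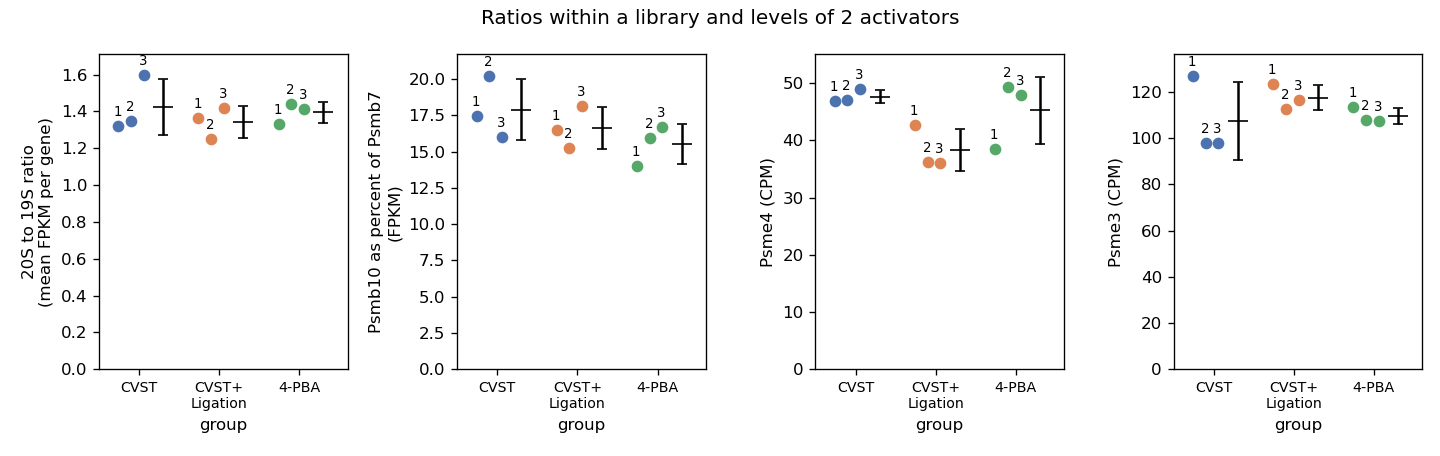
Ratio of 20S to 19S genes (mean FPKM per gene), Psmb10 as a percent of Psmb7 (FPKM), and CPM of the activators Psme4 and Psme3 in each library (points, numbered by replicate), with the group mean and SD (bars, n = 3). The CVST+Ligation libraries lie below the CVST libraries for Psme4, and the groups overlap in the other panels.

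Genes of the core varied together from library to library. Over all pairs of the 14 core genes, the median correlation of log2 CPM across the 9 libraries was 0.89, and it was 0.78 over the 8 libraries without CVST replicate 3. For the 19S genes these medians were 0.54 and 0.46, and for pairs of a core and a 19S gene 0.73 and 0.58. Ribosomal protein genes had 0.86 and 0.80, so this covariation is not shown to be particular to the proteasome. The points share libraries, depth and scaling, and the values are descriptions.

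Correlated with the mean of the core genes (the other core genes, for a member of the core), 13 of 14 core genes had r above 0.9, and 5 of 14 without CVST replicate 3. The 19S subunits most like the core were Psmd14 (r = 0.99, or 0.97 without that library) and Psmc2, an ATPase of the base (r = 0.98, or 0.95). At the other end stood Psme3 (r = -0.52), Psmd5 (-0.17), Psmd7 (-0.073), Psma8 (-0.055) and Psmd11 (-0.0043). Without CVST replicate 3 these 5 were at -0.20, -0.11, 0.095, -0.43 and 0.23 in that order, and Psma8 was the lowest of the 48. Across the 9 libraries the median deviation of the 48 genes from their own mean was -0.05, -0.06 and 0.29 in CVST, -0.09, -0.10 and 0.10 in CVST+Ligation, and -0.15, -0.02 and 0.09 in 4-PBA on the log2 scale. After removal of the length trend it was 0.23 in CVST replicate 3, the highest of the 9 libraries in CPM.

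Genes around the complex were read from lists of its partners and regulators. In CVST+Ligation versus CVST, 4-PBA versus CVST+Ligation and 4-PBA versus CVST, 9.64%, 3.23% and 15.4% of all genes passed the unadjusted threshold. Of 20 tested partners and other subunits, 1 (5%) was higher and 0 were lower in CVST+Ligation versus CVST at that threshold, namely Ube3a, a ubiquitin ligase, with CPM values of 18.9, 16.6 and 19 in CVST, 31.6, 20.8 and 25.2 in CVST+Ligation, and 26.0, 28.4 and 26.2 in 4-PBA. Its log2 fold change was 0.51 ± 0.17 (SE; adjusted p = 0.410, edgeR's quasi-likelihood test, Benjamini-Hochberg) and, for 4-PBA versus CVST, 0.56 (adjusted p = 0.171). In 4-PBA versus CVST, Ubfd1, a ubiquitin-binding protein, was at 0.47 (adjusted p = 0.256) and Akirin2, which brings proteasomes into the nucleus, at -0.43 (adjusted p = 0.294) by the same test, so that 3 of the 20 passed (15%), and 0 of the 20 passed in 4-PBA versus CVST+Ligation. Without CVST replicate 3, 2 of the 20 (10%) passed in each comparison with CVST, Ube3a and Ubqln4, against 10.2% and 16.3% of all genes, whereas Ubfd1 (0.41) and Akirin2 (-0.29) did not pass. Ubqln4 is named here after its values were seen. Adrm1, a ubiquitin receptor of the 19S particle outside the naming pattern, had CPM values of 91.7, 92.9 and 111 in CVST, 77.5, 82.7 and 91.6 in CVST+Ligation, and 86.0, 90.1 and 88.8 in 4-PBA. Every library of the ligated groups lay below every CVST library (by total counts the 4-PBA libraries overlapped CVST), with log2 fold changes of -0.23 (-0.50 to 0.04) for CVST+Ligation and -0.16 (-0.43 to 0.12) for 4-PBA, both intervals including 0, and -0.16 and -0.081 without CVST replicate 3. Groups did not overlap for 2 of the 20 partners (10%) in CVST+Ligation versus CVST, against 13.8% of all genes. In 4-PBA versus CVST these were 7 of 20 (35%) and 23.7%. Sem1, a small lid subunit, had CPM values of 29.3, 28.5 and 43.6 in CVST, 27.6, 27.5 and 33.0 in CVST+Ligation, and 27.5, 40.1 and 35.2 in 4-PBA, with overlapping groups. Pomp, the maturation factor of the core, had 359 ± 33.7 FPKM and log2 fold changes between -0.15 and 0.01. Without CVST replicate 3, Pomp was at -0.053 for CVST+Ligation and -0.044 for 4-PBA, each versus CVST.

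Of 12 regulators of proteasome genes, 0 passed the unadjusted threshold in any comparison by edgeR's quasi-likelihood test, against 9.64%, 3.23% and 15.4% of all genes. Nfe2l1, which drives proteasome genes when the complex falls short, had CPM values of 471, 433 and 365 in CVST, 384, 439 and 418 in CVST+Ligation, and 413, 399 and 353 in 4-PBA, and Nfe2l2, the factor of the oxidative stress response, had CPM values of 31.0, 40.9 and 32.1 in CVST, 32.5, 45.8 and 34.4 in CVST+Ligation, and 40.0, 48.3 and 47.6 in 4-PBA. Nfe2l2 had a log2 fold change of 0.39 for 4-PBA versus CVST (-0.02 to 0.79). Of 5 tested ubiquitin genes 0 passed in any comparison. Of 16 genes of p97 and ER-associated degradation, 0 passed in the comparisons with CVST (1 in each, or 6.25%, without CVST replicate 3, against 10.2% and 16.3% of all genes) and 1 (6.25%) was higher in 4-PBA versus CVST+Ligation, against 3.23% of all genes. This was Derl3, a channel component, at CPM values of 1.27, 1.02 and 0.705 in CVST, 0.496, 0.412 and 0.659 in CVST+Ligation, and 1.08, 1.43 and 0.80 in 4-PBA, with a log2 fold change of 1.07 (adjusted p = 1, edgeR's quasi-likelihood test, Benjamini-Hochberg).

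The interferon-inducible subunits left out of the 48 genes were far below their standard counterparts. Psmb9, which replaces Psmb6, had CPM values of 2.00, 3.77 and 2.82 in CVST, 0.868, 1.44 and 1.49 in CVST+Ligation, and 1.84, 2.57 and 2.63 in 4-PBA. Every CVST+Ligation library lay below every CVST library and below every 4-PBA library, where 13.8% and 7.73% of all genes did not overlap. The log2 fold change was -1.17 ± 0.38 (SE) for CVST+Ligation versus CVST and 0.89 ± 0.38 for 4-PBA versus CVST+Ligation, with adjusted p = 0.380 and 1 (edgeR's quasi-likelihood test, Benjamini-Hochberg). In percent of Psmb6 (FPKM) it was at 1.47, 2.65 and 1.41 in CVST, 0.634, 1.08 and 0.908 in CVST+Ligation, and 1.37, 1.61 and 1.64 in 4-PBA. Psmb8, which replaces Psmb5, had CPM values of 6.12, 9.58 and 8.14 in CVST, 4.50, 6.13 and 5.98 in CVST+Ligation, and 4.01, 7.45 and 12 in 4-PBA with overlapping groups and a log2 fold change of -0.52 for CVST+Ligation versus CVST (-1.35 to 0.31). Of the 11 genes of interferon response and antigen processing, Psmb9 was the only one with an unadjusted p below 0.05, in the first 2 comparisons (9.09% of the list in each, against 9.64% and 3.23% of all genes). In 4-PBA versus CVST+Ligation all 11 had a log2 fold change above 0 (median 0.28), as did 47.0% of all genes. Summed microglial markers lay at 258 to 295, 198 to 257 and 216 to 234 CPM in CVST, CVST+Ligation and 4-PBA. The 5 markers of neutrophils and monocytes (S100a8, S100a9, Lcn2, Ly6c2 and Ccr2) had summed CPM values of 2.63, 29.1 and 6.73 in CVST, 1.53, 9.38 and 4.66 in CVST+Ligation, and 3.47, 8.25 and 39.4 in 4-PBA. They were highest in CVST replicate 2 and 4-PBA replicate 3, the libraries with the highest Psmb9 of their groups (in 4-PBA 2.63 against 2.57 CPM). In CVST+Ligation the 2 differed, with the markers highest in replicate 2 and Psmb9 in replicate 3 (1.49 against 1.44 CPM). Ly6c2 or Ccr2 was at 0 in CVST replicate 3 and in CVST+Ligation replicates 1 and 3. The part of either cell type in the values of Psmb9 and the interferon genes was not tested.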

How the data were processed

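RNA of 9 mouse brains was sequenced, 3 for each group named in the sample labels. According to the methods and the submitters' processing notes, the reads were filtered with fastp, aligned with HISAT2 (GRCm38), assembled with StringTie and quantified with RSEM. For the alignment the methods name an orientation mode. Versions, annotation, the counting program and its handling of strand and of reads with several matches are not given in the sources used here. The authors deposited read counts per gene symbol without normalization. They also deposited FPKM values, called TPM in the methods, which equal the count divided by the library total and by 1 length per gene.

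Counts were fitted in R 4.3.3 with edgeR 4.0.16 (TMM, filterByExpr, quasi-likelihood test, 3 groups without covariates, all 9 libraries). P-values were adjusted by Benjamini-Hochberg over the 14746 genes tested. Where nothing was called, log2 fold changes are given in part with the 95% interval or the SE of the fit and in part alone. The labels do not say more of the replicates than their number, so p-values measure the spread between these mice only. Floors and intervals cover the depth of 18100739 to 25091498 counts and the spread of the fit, and floors cover counting error only. Libraries of a group differed beyond counting error (chi-square at least 24.7 times its degrees of freedom). Alternatives were DESeq2 1.42.0 or its size factors, total counts, 2 other filters, only the groups compared, the replicate number as a block, a correction for gene length, limma 3.58.1 on log2 FPKM with a pseudocount of 1 or 0.1, and leaving out 1 library at a time. Plots were drawn with matplotlib 3.10.9.

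The genes given in full are the catalytic and inducible β subunits, Psmd14, Psmd4, Psmd2, the activators, the inhibitor and the 4 members with the smallest p in each direction of each comparison. Of the lists around the complex, Nfe2l1, Nfe2l2, Pomp, Adrm1, Sem1, Psmb8, Psmb9 and the genes past the threshold are given. Members, lists and tests were chosen with earlier results of these data known. Gene positions come from GENCODE M21 (GRCm38), which placed 47 of the 48 genes, and 17 of them overlap a gene on the opposite strand. Promoters come from RefSeq (GRCm38.p6).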

Additional observations from a re-analysis of the deposited data

How the results depend on the processing

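No proteasome gene had an adjusted p below 0.05 in any comparison under any alternative. At the unadjusted threshold, the 1 call of CVST+Ligation versus CVST became 0 with DESeq2's size factors, total counts, all genes with at least 1 count, only the 2 groups, the replicate block and limma at either pseudocount. In 4-PBA versus CVST+Ligation the count of 0 became 1 with limma at either pseudocount (Psma8), and in 4-PBA versus CVST it became 1 with the replicate block (Psmb10). With a library left out these counts ranged from 0 to 1 in every comparison. In the main fit 9.64% of all genes were called in CVST+Ligation versus CVST. The shares were 3.23% in 4-PBA versus CVST+Ligation and 15.4% in 4-PBA versus CVST. The shares of all genes under these alternatives are not given here. The number of proteasome genes below 0 in 4-PBA versus CVST+Ligation was 22, became 14 with total counts and 13 with limma at either pseudocount, and ranged from 9 (without CVST+Ligation replicate 3) to 31 (without 4-PBA replicate 3). In CVST+Ligation versus CVST it ranged from 23 (without CVST replicate 3) to 43, with the median from -0.19 to 0.0093, and in 4-PBA versus CVST from 18 (without CVST replicate 3) to 39, with the median from -0.14 to 0.042. Of all genes, those called in 4-PBA versus CVST+Ligation before adjustment ranged from 256 to 1497 with a library left out. After adjustment, the 3 genes of CVST+Ligation versus CVST became 264 with DESeq2, 0 with at least 10 counts in every library, 1 with only the 2 groups, with the replicate block and with the block and length correction, and 11 with limma on log2(FPKM + 0.1), and ranged from 0 to 7 with a library left out. The 0 genes of 4-PBA versus CVST+Ligation became 22 with DESeq2, 1 with the block and with the block and length correction, and 2 with limma on log2(FPKM + 1), and ranged from 0 to 2. The 18 genes of 4-PBA versus CVST became 855 with DESeq2, 112 with at least 1 count, 6 with at least 10 counts in every library, 234 with only the 2 groups, 85 with length correction, and 56 and 69 with limma (pseudocounts 1 and 0.1), and ranged from 2 to 541. The cause of these changes was not tested. Whether the replicate numbers pair the mice is not stated. Of 9 pairs of the same number, 4 had deviations correlated above 0.1 (range -0.052 to 0.32). With 3 libraries per group this cannot decide the question. With 3 mice per group the 95% intervals of the members reached 0.224 to 1.85 (log2) to either side, with a median of 0.357.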

Other observations

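With a single library left out, a different member passed the unadjusted threshold of edgeR's quasi-likelihood test in each of 3 settings. Psmb10 was lower in CVST+Ligation versus CVST without CVST+Ligation replicate 3 (log2 fold change -0.49, adjusted p = 0.435). Psme4 was higher in 4-PBA versus CVST+Ligation without 4-PBA replicate 1 (0.36, adjusted p = 0.997). Psme1, of the interferon-inducible activator, was higher in 4-PBA versus CVST without CVST replicate 3 (0.35, adjusted p = 0.237, against 0.11 with all libraries). In that setting 1 of the 48 genes was called (2.08%), against 16.3% of all genes, and 30 had a value above 0. For the settings of Psmb10 and Psme4 the shares of all genes are not given here. With all libraries they were 9.64% in CVST+Ligation versus CVST and 3.23% in 4-PBA versus CVST+Ligation. None passed the Benjamini-Hochberg adjustment over all genes. These values were singled out after they had been seen, and the cause was not tested.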
